A study of Mus musculus with 6 samples.

Results

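The genes described here are 50 mouse genes whose products build or assemble the motile cilium, out of 18614 genes with estimated counts in bulk RNA from mouse SVZ. The SVZ (subventricular zone) lies beneath the wall of the lateral ventricle and holds neural stem cells. They were taken from a list of radial spoke, central pair, dynein assembly, tektin and other cilium-associated genes, chosen with earlier results of these data known. All 50 had a row in the deposited table. Of these, 2 (Dnai1 and Dnai2) were found through another name. Libraries came from mice homozygous for a Zhx2 deletion allele, written Zhx2Δ/Δ in the labels (KO 1 to 3), and from Zhx2+/+ mice (WT 1 to 3), with 3 libraries in each group. The sources used here give no age, no extent of the deletion and nothing on pooling of animals. The titles of all KO libraries name ZHX2, but in the genotype tag KO 2 is marked ZHX3 KO and KO 3 is marked ZHX4 KO. Nothing in the labels ties libraries to separate animals, so p-values cover only library-to-library spread, possibly technical.

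A motile cilium beats because dynein motors slide a ring of microtubule doublets around a central pair. Outer and inner dynein arms drive the sliding, radial spokes and the central pair apparatus pattern it, nexin links hold neighbouring doublets together, and tektins and other proteins brace the doublet lumen. Dynein arms are put together in the cytoplasm by dedicated assembly factors before they enter the cilium. In the ventricle wall these cilia belong to the ependymal cells that line the SVZ and move cerebrospinal fluid, and the epithelium of the neighbouring choroid plexus also carries tufts of cilia. RFX and FOXJ1 are transcription factors known to act on many genes of this kind.

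Total estimated counts lay between 17037152 and 17685906 per library. Zhx2, the targeted gene, was at 67.1, 57.8 and 56.3 CPM (counts scaled to library size, with TMM factors) in KO 1 to 3, against 39.8, 40.5 and 38.2 CPM in WT 1 to 3. It was higher in every library labelled KO (log2 fold change 0.61, SE 0.10, edgeR adjusted p = 0.163), so directions below refer to the KO label and not to a measured loss of Zhx2 RNA. Markers of SVZ stem cells and neuroblasts were present throughout: Sox2 was between 55.3 and 89.4 CPM and Dcx between 30.4 and 47.2 CPM over the 6 libraries. The summed level of the 11 markers on that list was 785, 811 and 647 CPM in KO 1 to 3, against 778, 425 and 621 CPM in WT 1 to 3. Marker sums of neighbouring tissues also differed between libraries, and tissue content and expression per cell cannot be told apart in any of these sums. The summed level of 20 choroid plexus markers was 493, 552 and 340 CPM in KO 1 to 3, against 23392, 18270 and 5489 CPM in WT 1 to 3. That of 10 striatal neuron markers was 3723, 4803 and 4835 CPM in KO 1 to 3, against 535, 8286 and 2384 CPM in WT 1 to 3.

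Promoter letters are given because RFX and FOXJ1 motifs are known from genes of this kind. Of the 50 members, 41 had a promoter in the RefSeq table of build GRCm38.p6, which runs from 250 bases before to 50 bases after each start. GTTGCC, the conserved arm of the X-box bound by RFX factors, was found on either strand in 19 of these 41 genes (46.3%), against 3821 of 27025 genes in the whole table (14.1%). The full X-box was in 2 of the 41, Ak9 and Ccdc151 (4.9%, against 0.529% of all genes) and can overlap a GTTGCC match. The forkhead motif TGTTTAC was in 4, namely Ak7, Cfap43, Iqub and Mlf1 (9.8%, against 4.05%). A match describes these letters and is not a binding site.

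The stretches below are shown because they set members with clearly separated groups (Cfap44, Spag16, Mlf1, Dynlrb2, Iqub) beside members whose groups overlapped (Enkur, Ccdc153, Tekt2). All lie outside the gene's RefSeq record and outside annotated exons, and run 5′ to 3′ on the gene's strand. Capitals mark the GTTGCC match, written GGCAAC where it is on the opposite strand, or the TGTTTAC match. The Mlf1 stretch also holds its TGTTTAC match, left in lower case.
Cfap44, chr16:44394640-44394705, plus strand: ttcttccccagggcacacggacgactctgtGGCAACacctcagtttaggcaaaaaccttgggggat
Spag16, chr1:69826829-69826871, plus strand: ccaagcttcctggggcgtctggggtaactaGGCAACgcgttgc
Mlf1, chr3:67373962-67374027, plus strand: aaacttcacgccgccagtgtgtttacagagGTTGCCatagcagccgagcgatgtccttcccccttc
Dynlrb2, chr8:116504934-116504973, plus strand: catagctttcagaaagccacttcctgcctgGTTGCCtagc
Iqub, chr6:24515226-24515292, minus strand: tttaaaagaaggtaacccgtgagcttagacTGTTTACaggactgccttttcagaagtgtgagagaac
Enkur, chr2:21205366-21205429, minus strand: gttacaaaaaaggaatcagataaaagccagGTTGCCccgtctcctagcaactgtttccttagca
Ccdc153, chr9:44240495-44240560, plus strand: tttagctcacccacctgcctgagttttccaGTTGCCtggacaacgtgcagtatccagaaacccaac
Tekt2, chr4:126325749-126325814, minus strand: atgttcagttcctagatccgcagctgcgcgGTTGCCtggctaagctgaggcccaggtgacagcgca
Among tested members with a promoter, the 18 that held GTTGCC had a median log2 fold change of -0.78 and the 22 without it -0.76. Groups did not overlap, with KO-labelled lower, in 10 of the 18 and in 17 of the 22, against 8.74% of all genes.

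Most motile cilium genes were lower in the KO-labelled libraries than in WT. Their summed level was 399, 404 and 346.5 CPM in KO 1 to 3, against 871, 673 and 564 CPM in WT 1 to 3, or 383 ± 31.6 CPM in KO-labelled and 703 ± 156 CPM in WT libraries (SD, n = 3 each). The KO-labelled mean was 54.5% of the WT mean. Each KO-labelled library lay below each WT library, and WT 1 stood highest. In bulk RNA, fewer ciliated cells and less RNA per cell cannot be told apart.

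Of the 50 members, 49 passed the filter on low counts and Spag6 did not. The log2 fold change was negative in 47 of the 49, with a median of -0.84, against 46.6% negative and a median of 0.02 over all 15126 tested genes. All 3 KO-labelled libraries lay below all 3 WT libraries in 34 members, where 8.74% of all genes did so, and the reverse pattern was seen in none, against 8.00%. The members were chosen with earlier results of these data known, so these shares describe the list and test nothing. The exact permutation p was 0.1 (two-sided) for both Cfap44 and Drc7, the smallest that 3 against 3 allows. Any gene whose groups do not overlap gives that value, so it adds nothing to the count of 34. Including Spag6, which an unfiltered fit keeps, the median over all 50 was -0.79.

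No member passed in edgeR's quasi-likelihood test at an adjusted p of 0.05 (Benjamini-Hochberg over all genes), where 0.00% of all genes passed. At an unadjusted p under 0.05, 33 members were lower and 0 higher, against 6.39% and 2.68% of all genes. Limma-voom called 0, while DESeq2 called 20 members, all lower, against 2.02% of all genes. Without WT 3, edgeR called 5 members, Drc7, Cfap44, Iqub, Spag16 and Rsph4a, all lower, against 0.895% of all genes. With KO 1 to 3 set against WT 3 alone, the WT library poorest in choroid plexus markers, the median over 50 members was -0.58. The sum of these markers in WT 3 was still 5489 CPM, against 493, 552 and 340 CPM in KO 1 to 3.

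**Figure D1:**
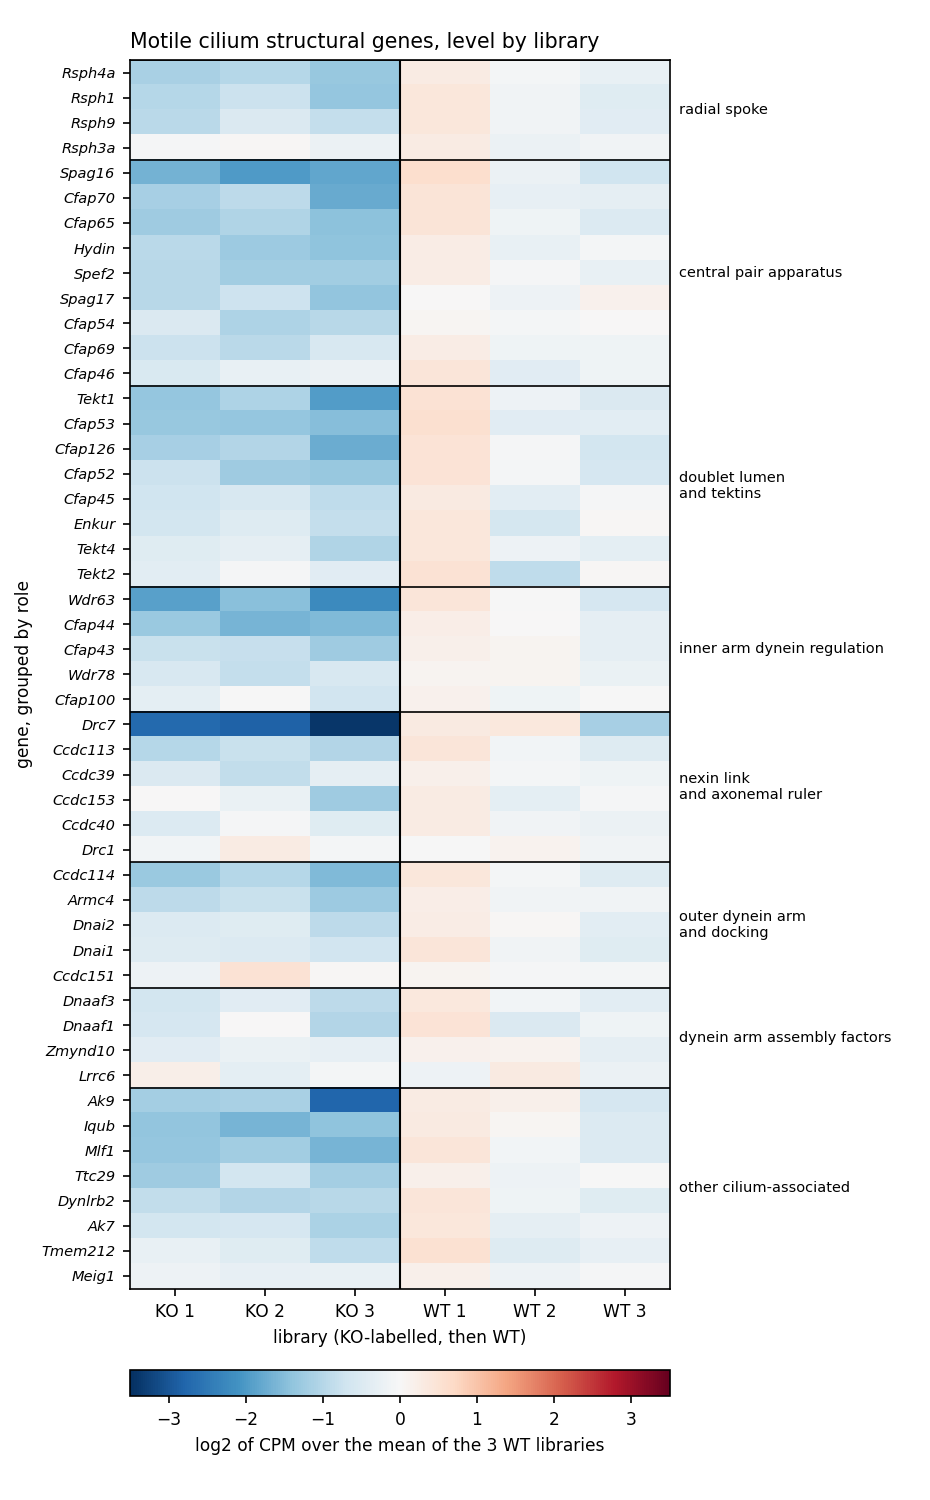
Level of the 49 tested members in each library, as log2 of CPM over the mean of the 3 WT libraries (colour), with genes in rows grouped by role and KO-labelled libraries left of WT. Blue fills most of the KO columns, the darkest row is Drc7, and WT 1 is the reddest column.

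Radial spokes are the T-shaped struts that carry signals from the central pair to the dynein arms. Fold changes were negative in all 4 of their genes (median log2 value -0.89), and groups did not overlap in 3. Here and in the role groups below, such counts stand beside 46.6% negative and 8.74% lower without overlap over all genes. Rsph4a, a spoke head protein gene on chromosome 10 from 33905111 to 33916021, was at 10.2, 11.3 and 8.98 CPM in KO 1 to 3, against 27.2, 21.3 and 18.7 CPM in WT 1 to 3. Its groups did not overlap, and the log2 fold change was -1.14 (SE 0.17, edgeR adjusted p = 0.151, DESeq2 adjusted p = 5.93e-05). Rsph1, also of the spoke head, was the spoke gene with the highest level per length, at 9.85 ± 2.07 FPKM in KO-labelled and 20.4 ± 6.67 FPKM in WT libraries (SD, n = 3 each). In CPM it was 11.6, 13.6 and 8.93 in KO 1 to 3, against 30.6, 21.2 and 17.3 in WT 1 to 3, again without overlap (log2 fold change -1.02, SE 0.25, edgeR adjusted p = 0.288). Rsph9 had -0.76.

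Rsph3a, a spoke stalk gene, showed no such gap. It was at 16.7, 17.8 and 14.9 CPM in KO 1 to 3, against 20.8, 14.9 and 15.95 CPM in WT 1 to 3. The groups overlapped and the log2 fold change was -0.07 (SE 0.16, edgeR adjusted p = 0.925). Rsph3b, its near-identical copy, had -0.06, and because the authors' counting could split reads between the copies, the level of each is uncertain.

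The central pair apparatus is the set of projections on the middle microtubules against which the spoke heads push. Fold changes were negative in all 9 tested genes of this set, their median on the log2 scale being -1.13, and groups did not overlap in 8. Spef2, a central pair projection gene also known from sperm tails, was at 6.30, 5.30 and 5.28 CPM in KO 1 to 3, against 14.7, 11.9 and 10.3 CPM in WT 1 to 3. Every KO-labelled value was below the lowest WT value (log2 fold change -1.13, SE 0.18, edgeR adjusted p = 0.151, DESeq2 adjusted p = 0.000384). Cfap69, the gene of this set with the highest level per length, was at 23.6, 20.7 and 27.0 CPM in KO 1 to 3, against 47.6, 35.4 and 35.7 CPM in WT 1 to 3. Its log2 fold change was -0.74 (SE 0.16, edgeR adjusted p = 0.236).

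The lowest fold change of the central pair set was that of Spag16, with 3.95, 3.17 and 3.52 CPM in KO 1 to 3, against 19.0, 10.9 and 7.66 CPM in WT 1 to 3 (log2 fold change -1.82, SE 0.35). Cfap70 and Cfap65 had -1.24 and -1.23, and Hydin, the giant projection protein gene whose loss causes hydrocephalus in mice, had -1.20. Spag17 was at 2.70 ± 0.617 CPM in KO-labelled and 5.40 ± 0.587 CPM in WT libraries (SD, n = 3 each) and was the only tested member whose level in WT 3 exceeded that in WT 1 and WT 2. Cfap54 had -0.84, and Cfap46, the member of this set with overlapping groups, had -0.32.

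Spag6, also of the central pair, had 21, 6 and 6 counts in KO 1 to 3, against 6, 8 and 12 counts in WT 1 to 3, too few for a test. Its near-identical relative Spag6l had 11.1, 13.2 and 10.7 CPM in KO 1 to 3, against 19.9, 18.1 and 11.7 CPM in WT 1 to 3. Those groups overlapped (log2 fold change -0.50, SE 0.22, edgeR adjusted p = 0.557). The split of reads between this pair is uncertain too.

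Tektins are filaments along the doublets, and other proteins fix to the inside of the doublet lumen. The 8 genes of this set had a median log2 fold change of -0.89, and groups did not overlap in 5. Tekt1 was at 4.77, 5.76 and 3.17 CPM in KO 1 to 3, against 17.2, 10.7 and 8.64 CPM in WT 1 to 3. The groups were apart (log2 fold change -1.41, SE 0.33, edgeR adjusted p = 0.264, DESeq2 adjusted p = 0.00787). Cfap126, the gene of flattop, a lumen protein with a role in basal body docking, was the highest of the set per length. It had 8.66, 9.50 and 5.81 CPM in KO 1 to 3, against 26.8, 18.9 and 12.5 CPM in WT 1 to 3 (log2 fold change -1.28, SE 0.32, edgeR adjusted p = 0.289).

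The other tektins moved less. Tekt4 had -0.57 and Tekt2 -0.27, both with overlapping groups, and the interval of 1 SE around Tekt2 (SE 0.37) spans 0. WT 2 held the lowest Tekt2 level of all libraries, 1.62 CPM. Cfap53, Cfap52 and Cfap45 had -1.38, -1.08 and -0.71 with separate groups, and Enkur, whose groups overlapped, had -0.64.

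Inner arm dyneins shape the bend of the cilium, and the genes of this set tether or regulate them. Fold changes were negative in all 5 (median log2 value -0.92), and groups did not overlap in 4. Cfap44, on chromosome 16 from 44394742 to 44482694, encodes a tether protein of the inner arm motor domain and had the smallest p of all members. It was at 11.1, 8.93 and 9.45 CPM in KO 1 to 3, against 32.7, 28.0 and 21.99 CPM in WT 1 to 3. Even the lowest WT library lay well above the highest KO-labelled one, and the log2 fold change was -1.49 (SE 0.18, edgeR adjusted p = 0.144, DESeq2 adjusted p = 1.68e-08). Its tether partner Cfap43 had -0.92. Over the alternatives tried, the adjusted p of Cfap44 ranged between 1.68e-08 (DESeq2) and 0.827.

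Wdr63 and Wdr78 encode intermediate chains of inner arm dyneins. Wdr78 had the highest level per length in this set and was at 22.3, 18.7 and 22.3 CPM in KO 1 to 3, against 35.6, 35.5 and 28.0 CPM in WT 1 to 3. Groups did not overlap (log2 fold change -0.65, SE 0.14, edgeR adjusted p = 0.215). Wdr63 differed more, at 2.60 ± 0.681 CPM in KO-labelled and 9.28 ± 3.18 CPM in WT libraries (SD, n = 3 each), a log2 fold change of -1.83 (SE 0.33). Cfap100 had -0.31, with overlapping groups.

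The nexin link set was the most mixed. Its 6 genes spanned log2 fold changes from -2.94 to 0.05. Drc7, a nexin-dynein regulatory complex gene on chromosome 8 from 95055103 to 95078141, had the lowest fold change of all members. It was at 7.42, 6.91 and 4.64 CPM in KO 1 to 3, against 60.8, 63.4 and 21.9 CPM in WT 1 to 3. WT 1 and WT 2 stood far above WT 3, and WT 3 far above every KO-labelled library (log2 fold change -2.94, SE 0.45, edgeR adjusted p = 0.151, DESeq2 adjusted p = 3.2e-10). Against WT 3 alone the log2 fold change was -1.79.

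Drc1, of the same complex, was at 17.7, 22.9 and 18.1 CPM in KO 1 to 3, against 18.7, 20.6 and 17.4 CPM in WT 1 to 3. The groups overlapped fully (log2 fold change 0.05, SE 0.14, edgeR adjusted p = 0.939). Ccdc153, the member with the highest mean level per length, was at 14.4 ± 5.55 FPKM in KO-labelled and 19.2 ± 4.51 FPKM in WT libraries (SD, n = 3 each). Its CPM values were 15.1, 12.7 and 6.34 in KO 1 to 3, against 18.4, 11.8 and 14.7 in WT 1 to 3. KO 3 stood low, KO 1 lay among the WT libraries, and the log2 fold change was -0.40 (SE 0.33, edgeR adjusted p = 0.755).

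Ccdc39 and Ccdc40 encode the axonemal ruler, the paired coiled coils that set the repeat along each doublet. They had log2 fold changes of -0.54 and -0.30, with groups apart for Ccdc39 and overlapping for Ccdc40. Ccdc113 had -0.92, with groups apart.

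Outer dynein arms supply most of the beating force. Of the 5 genes of this set, groups did not overlap in 4. Ccdc114, a docking complex gene with both the smallest p and the highest level per length of the set, was at 6.13, 7.54 and 5.11 CPM in KO 1 to 3, against 19.7, 14.3 and 10.8 CPM in WT 1 to 3. The groups were separate (log2 fold change -1.26, SE 0.26, edgeR adjusted p = 0.207, DESeq2 adjusted p = 0.00306). Armc4, also needed for docking, had -0.97, and the intermediate chain genes Dnai2 and Dnai1 had -0.59 and -0.53.

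Ccdc151, whose product is a docking partner of that of Ccdc114, had the highest fold change of all members. It was at 6.95, 11.2 and 8.16 CPM in KO 1 to 3, against 8.50, 7.62 and 7.60 CPM in WT 1 to 3. The groups overlapped, with KO 2 highest (log2 fold change 0.15, SE 0.21, edgeR adjusted p = 0.856). Its counts were split over 7 transcripts. The main transcript was estimated at 0, 112 and 102 counts in KO 1 to 3, against 15.4, 122 and 61.5 counts in WT 1 to 3, so single transcripts varied more than the gene's sum of 118, 194 and 139 counts in KO 1 to 3, against 157, 127 and 131 counts in WT 1 to 3.

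The 4 assembly factors had the median log2 fold change closest to 0 of the 8 role groups, -0.39, and groups did not overlap in 1, Dnaaf3. That gene was at 5.24, 6.10 and 4.29 CPM in KO 1 to 3, against 10.4, 7.62 and 6.27 CPM in WT 1 to 3, so KO 2 nearly reached WT 3 (log2 fold change -0.64, SE 0.25, edgeR adjusted p = 0.518, DESeq2 adjusted p = 0.479). Zmynd10 was at 7.25, 8.06 and 7.69 CPM in KO 1 to 3, against 10.5, 10.2 and 7.66 CPM in WT 1 to 3. WT 3 lay within the KO-labelled range (log2 fold change -0.30, SE 0.17, edgeR adjusted p = 0.648). Dnaaf1 had -0.47 and Lrrc6 -0.06, both with overlapping groups. The difference between this set and the axonemal sets was not tested.

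Of the remaining 8 cilium-associated genes, groups did not overlap in 6, and the median log2 fold change was -0.97. Iqub, which encodes a protein with IQ-motif and ubiquitin-like domains, on chromosome 6 from 24444865 to 24515067, was at 5.42, 4.61 and 5.34 CPM in KO 1 to 3, against 17.6, 14.9 and 10.1 CPM in WT 1 to 3. The KO-labelled libraries were close together and the WT libraries spread above them (log2 fold change -1.47, SE 0.23, edgeR adjusted p = 0.151, DESeq2 adjusted p = 3.47e-05). The nucleotide kinase genes Ak9 and Ak7 had -1.52 and -0.75. Mlf1 had -1.39 and Ttc29 -0.99, both with groups apart.

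Dynlrb2, a dynein light chain gene typical of ciliated cells and testis, was at 5.66, 5.01 and 5.17 CPM in KO 1 to 3, against 13.7, 9.18 and 7.66 CPM in WT 1 to 3. Groups were apart (log2 fold change -0.95, SE 0.24, edgeR adjusted p = 0.299). Its broadly expressed paralog Dynlrb1 was at 192, 197 and 166 CPM in KO 1 to 3, against 194, 147 and 174 CPM in WT 1 to 3. Those groups overlapped, with a log2 fold change of 0.11 (SE 0.14, edgeR adjusted p = 0.841). Tmem212 had -0.50 and Meig1, known from sperm development, -0.24, both with overlapping groups.

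**Figure D2:**
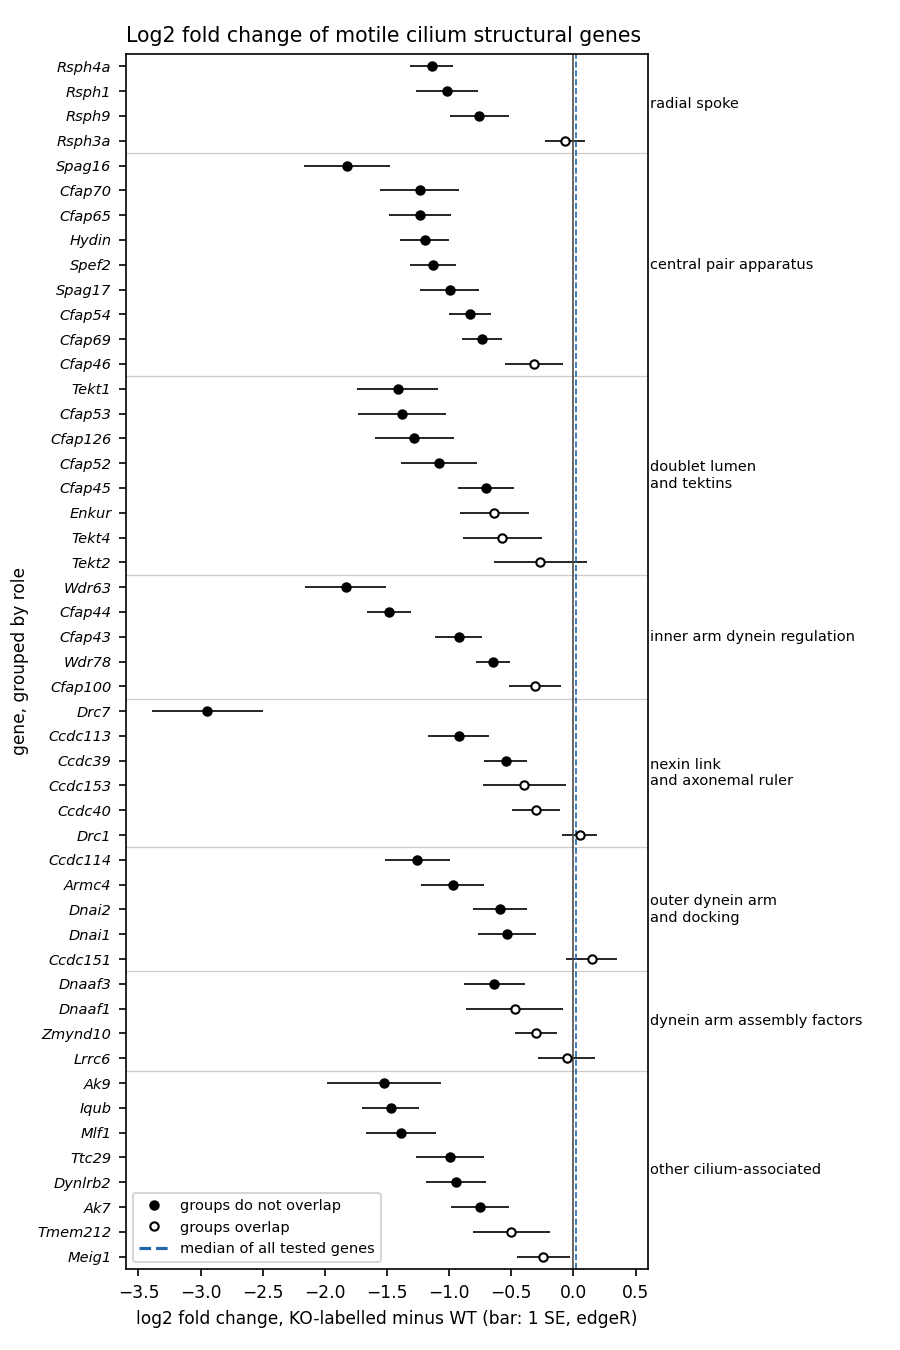
Log2 fold change of each tested member, KO-labelled minus WT, with bars of 1 SE from edgeR, grouped by role. Filled points mark the 34 members whose groups do not overlap, and the dashed line is the median of all tested genes at 0.02. Drc7 at -2.94 and Ccdc151 at 0.15 are the ends of the range.

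**Figure D3:**
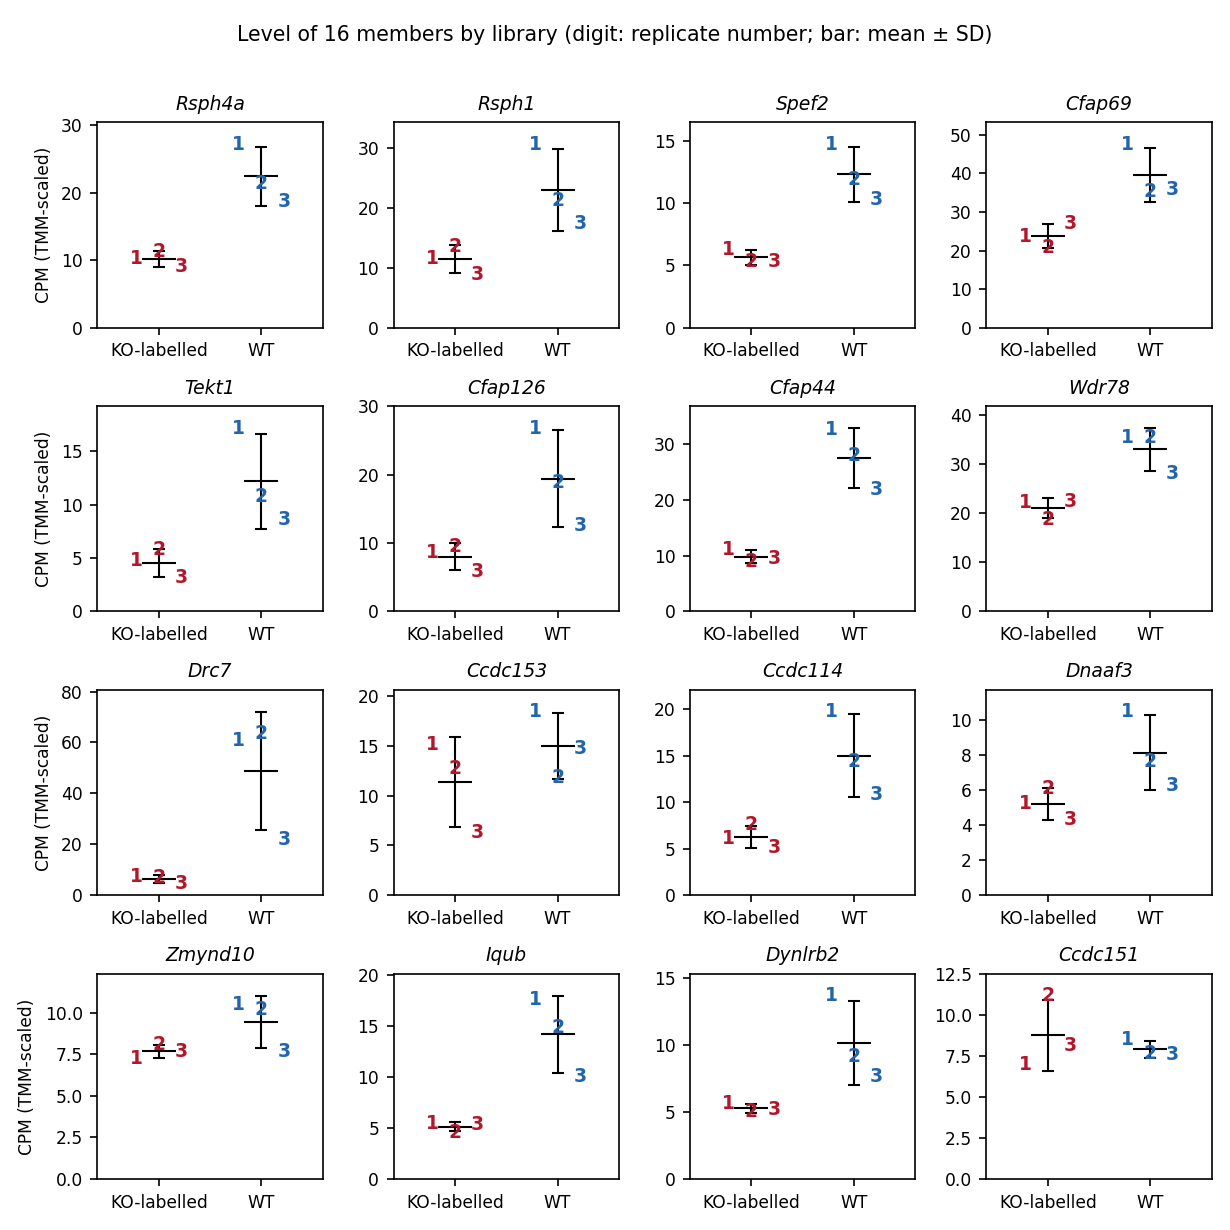
TMM-scaled CPM of 16 members in each library, KO-labelled left of WT, each library drawn as its replicate number, with mean and SD (n = 3). WT 1 is the highest WT library in all but Drc7, and Ccdc153, Zmynd10 and Ccdc151 show overlapping groups.

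Per length, the members were of low to moderate abundance. The mean over the 6 libraries was at least 1 FPKM in 43 of the 50 members. The highest were Ccdc153, Dynlrb2, Cfap126, Rsph1 and Rsph9, at 16.8, 16.02, 15.3, 15.1 and 14.6 FPKM, and these neighbours differed by less than their spread between libraries. Spag6 was lowest at 0.278 FPKM, followed by Spag17 at 0.512 FPKM. Exons of 5 members overlapped those of another gene over at least 10% of their length: Ccdc39 (Ttc14), Dnaaf1 (Taf1c), Dnaaf3 (Gm15873), Tekt2 (Gm12945) and Zmynd10 (Gm34106). All 5 partners lie on the opposite strand and cover between 10.1% (Zmynd10) and 20.8% (Tekt2) of the member's exon bases. Since use of strand in counting is not given in the sources used here, reads within the overlap cannot be told apart.

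Within the WT group, WT 3 was set beside WT 1 and WT 2, as values with no test. WT 3 was below both other WT libraries in 32 of the 49 tested members, between them in 16 and above both in 1, where 23.4% of all genes were below both and 27.9% above both. The median member stood in WT 3 at 75.1% of the mean of WT 1 and WT 2, with a range from 35.3% (Drc7) to 117% (Spag17), against a median of 101% over all tested genes. WT 1 was the highest WT library in 45 of 49 members and the highest of all 6 libraries in 44. KO 3 was the lowest of all 6 libraries in 31.

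WT 3 nonetheless stayed above the KO-labelled libraries for most members. It exceeded all 3 of them in 38 of 49, where 23.1% of all genes did. The median member in the KO-labelled libraries was at 66.5% of WT 3, and at 52.9% of the mean of WT 1 and WT 2. By role, the KO-labelled median relative to WT 3 was lowest for the central pair set, at 54.5%, and highest for the assembly factors, at 91.7%.

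Choroid plexus markers separated the WT libraries far more. In WT 3 all 20 of these markers were below both other WT libraries, at a median of 26.9% of the mean of WT 1 and WT 2. In the KO-labelled libraries their median was 1.65% of that mean and 6.61% of WT 3. All 20 were lower in the KO-labelled libraries with no overlap (median log2 fold change -5.52), against 8.74% of all genes. DESeq2 called all 20, against 2.02%. This list too was chosen with earlier results of these data known. Tmem72 had 0 counts in KO 1 and 7 and 4 in KO 2 and KO 3. The part of choroid plexus content in the levels of the cilium genes was not tested. Against WT 3 alone, the median log2 fold change was -0.58 for the cilium genes and -3.92 for the choroid plexus markers.

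Drc7, at 35.3% in WT 3, was within the range of the choroid plexus markers, 23.1% to 37.3%. Gmnc, which encodes an early regulator of multiciliation, was at 0.353, 0.115 and 0.117 CPM in KO 1 to 3, against 12.2, 12.7 and 3.25 CPM in WT 1 to 3. Its counts of 2 in KO 2 and 2 in KO 3 are below the floor of 3 counts. Foxj1, the master regulator of motile cilia, was at 50.1, 37.8 and 32.2 CPM in KO 1 to 3, against 85.0, 64.8 and 61.5 CPM in WT 1 to 3 (log2 fold change -0.82, SE 0.20, edgeR adjusted p = 0.287). Of the 9 tested multiciliation regulators, 7 had negative values (median -0.52), against 46.6% of all genes. In 5 the groups did not overlap, all lower, against 8.74% of all genes. Trp73, Myb and Rfx3 had -1.34, -0.62 and -0.52 with groups apart, while Rfx2 and Deup1 had -0.46 and -0.50 with overlapping groups. Ccno and Mcidas were above 0, at 0.27 and 0.09, also with overlapping groups. Cdc20b, with 5, 1 and 5 counts in KO 1 to 3, against 1, 0 and 3 counts in WT 1 to 3, was not tested.

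**Figure D4:**
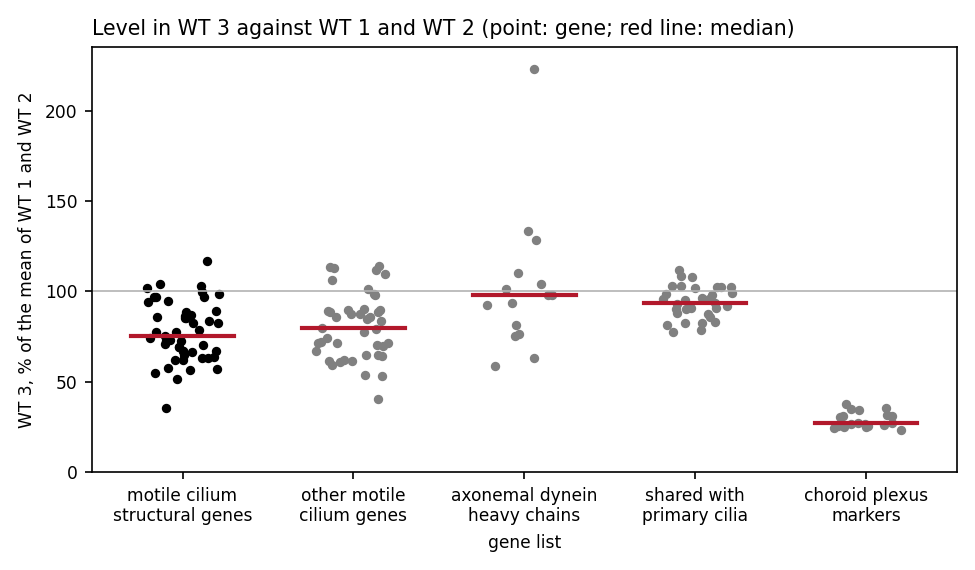
Level in WT 3 as a percentage of the mean of WT 1 and WT 2, for each tested gene (points) of 5 lists, with the list median in red. The cilium structural genes have a median of 75.1% and the choroid plexus markers one of 26.9%, while genes shared with primary cilia have a median of 93.5%.

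Other motile cilium genes had negative fold changes in most cases. Of 43 tested, 40 lay below 0 on the log2 scale (median -0.54), against 46.6% of all genes. Groups did not overlap in 19, all lower, against 8.74% of all genes. At an edgeR unadjusted p under 0.05, 15 were lower, against 6.39%, and DESeq2 called 4, against 2.02%. Spata18, Spata17 and Pifo had the smallest p, at -1.28, -1.28 and -1.23. Of 15 axonemal dynein heavy chain genes, 14 were negative (median -0.71). Groups were apart in 9 and DESeq2 called 6, against 8.74% and 2.02% of all genes. Dnah6, Dnah2 and Dnah9 had the smallest p, at -1.76, -0.84 and -1.13.

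Genes of intraflagellar transport, its kinesin motors and the BBSome, which primary cilia use too, differed less than the motile cilium genes. Their summed level was 1359, 1394 and 1491 CPM in KO 1 to 3, against 1453, 1465 and 1432 CPM in WT 1 to 3. The kinesin genes Kifap3 and Kif3a were its largest terms, so the sum says little about the other genes. Kifap3 was at 248, 249 and 277 CPM in KO 1 to 3, against 219, 239 and 249 CPM in WT 1 to 3. Kif3a was at 203, 204 and 228 CPM in KO 1 to 3, against 206, 171 and 210 CPM in WT 1 to 3. Of the 33 genes tested, 24 were negative, against 46.6% of all genes, with a median of -0.10. Groups did not overlap in 7, all lower, against 8.74% of all genes. At an edgeR unadjusted p under 0.05, 4 were lower, against 6.39%. DESeq2 and edgeR called 0, against 2.02% (lower) and 0.00% of all genes. Wdr35, Wdr19 and Ift80 had the smallest p, at -0.36, -0.34 and -0.44. The difference between these lists was not tested.

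**Figure D5:**
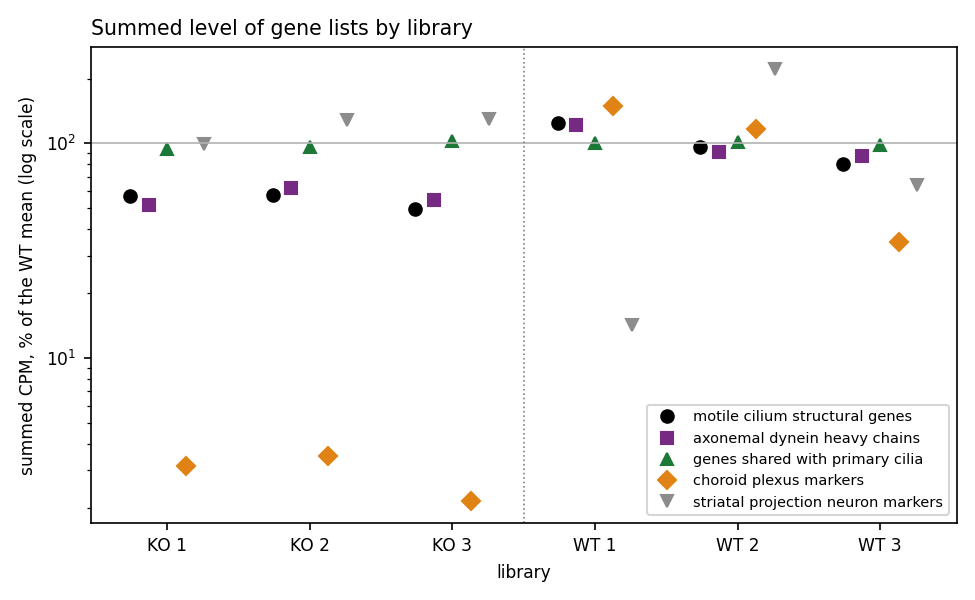
Summed CPM of 5 gene lists in each library, as a percentage of the WT mean on a log axis, with KO-labelled libraries left of WT. The cilium structural genes average 54.5% in the KO-labelled libraries and the choroid plexus markers 2.94%. The genes shared with primary cilia stay at 97.6%, a sum led by Kifap3 and Kif3a. Striatal markers vary mostly among the WT libraries.

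Ependymal markers with no place in the axoneme gave a mixed picture. Mia was at 1.94, 2.53 and 1.53 CPM in KO 1 to 3, against 11.3, 6.002 and 5.11 CPM in WT 1 to 3 (log2 fold change -1.89, SE 0.37, edgeR adjusted p = 0.192, DESeq2 adjusted p = 0.000802). Cd24a had -0.47 with groups apart and Rarres2 -0.64 with overlapping groups. Prom1 and Vim had -0.12 and 0.10. Of the 5 tested genes, 4 were negative (median -0.47), against 46.6% of all genes. Groups did not overlap in 2, with KO-labelled lower, against 8.74% of all genes.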

How the data were processed

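RNA from the SVZ was sequenced in 3 libraries per group. The authors deposited estimated counts and FPKM per RefSeq transcript, per the file headers and the values. Build mm10 and limma 3.40.6 are named in the submitters' processing notes; the sources used here name no aligner or quantifier. The authors' group means were not used. Counts were summed per NCBI gene number (18614 genes) and rounded to whole numbers. RefSeq (GRCm38.p6) named 18489; the 125 without a symbol held between 0.104% and 0.14% of counts. Replicates differed beyond sampling noise (chi-square per degree of freedom between 22.6 and 99.5).

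All genes were fitted with edgeR 4.0.16 in R 4.3.3 (TMM, filterByExpr with a minimum count of 10, robust quasi-likelihood F test, group only, 15126 genes). SE was derived from the fold change and F. Fold changes are KO-labelled minus WT. FPKM entered no test; it served to compare levels between genes, to describe group levels of a few members and as an alternative scale for WT 3 and the summed level. The procedure was also run on simulated counts with known changes. Those counts held no differences in tissue content between libraries, so that run does not cover such differences. Alternatives were DESeq2 1.42.0, limma-voom 3.58.1, other scalings and filters, the replicate block, KO 1 alone, and single libraries left out. WT 3 alone was added after seeing the data. The members and lists were chosen with earlier results of these data known. A floor of 3 counts is between 0.17 and 0.176 CPM, counting error only. Values in every library are given for the member with the smallest p and that with the highest FPKM in each role group and for the ends of the fold change range; others were named after their values were seen.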

Additional observations from a re-analysis of the deposited data

How the results depend on the processing

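The median log2 fold change of the members was negative under all 15 alternatives, between -0.92 (without WT 3) and -0.58 (WT 3 alone), and the number of members whose groups did not overlap was between 31 (filter of 5 CPM, 42 tested, against 8.81% of all genes) and 42 of 50 (KO 1 alone, against 26.4% of all genes, since 1 library separates more easily than 3). With single libraries left out the median was between -0.92 and -0.63 and the number between 34 and 39, where between 12.4% and 15.9% of all genes did not overlap in that direction. EdgeR called 0 members except without WT 3, so leaving out single libraries gave between 0 and 5, and DESeq2 called 20. Over all genes edgeR called 0. DESeq2 called 305 lower and 6 higher, and edgeR without WT 3 called 137 lower. Of 49 members, 42 stayed negative throughout. Signs reversed, with no call, in Drc1 (-0.0956 with KO 1 alone, -0.0797 without KO 2, -0.007 without WT 3), Ccdc151 (-0.18 with KO 1 alone, -0.0647 without KO 2), Ccdc153 (0.0175 with KO 1 alone), Lrrc6 (0.20 with KO 1 alone, 0.14 with WT 3 alone, 0.0693 without KO 2, 0.12 without WT 2), Rsph3a (0.047 with WT 3 alone, 0.0024 without KO 3, 0.0943 without WT 1), Zmynd10 (0.0033 with WT 3 alone) and Tekt2 (0.0832 without WT 1). With single libraries left out, the values ran from -0.0797 to 0.12 for Drc1, from -0.0647 to 0.29 for Ccdc151, from -0.20 to 0.12 for Lrrc6, from -0.17 to 0.0943 for Rsph3a and from -0.57 to 0.0832 for Tekt2; the cause was not tested. The labels state no pairing by replicate number. Deviations of same-numbered libraries correlated at -0.162, -0.067 and -0.037, and those of differently numbered libraries between -0.149 and 0.182. Taken from the means of such small groups, these values cannot exclude a pairing. With the replicate block the median was -0.86 and 0 members were called. With DESeq2-type or upper quartile size factors or FPKM, the WT 3 median moved from -0.41 to between -0.46 and -0.43 on the log2 scale. Low counts limit members such as Spag6, Armc4 and Cfap53.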

Other observations

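Some motile cilium genes outside the 50, picked after their values were seen, had fold changes near or above 0. Tppp3 averaged 83.1 ± 21.5 CPM in KO-labelled and 82.7 ± 20.1 CPM in WT libraries, and Tekt5 averaged 12.3 ± 1.80 CPM in KO-labelled and 10.6 ± 2.33 CPM in WT libraries (SD, n = 3 each). Their log2 fold changes were 0.01 (SE 0.25) and 0.21 (SE 0.21).

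Krt15, a keratin gene on the ependymal marker list, had 5, 746 and 3 counts in KO 1 to 3, against 9, 3 and 3 counts in WT 1 to 3, so KO 2 stood alone. It did not pass the filter on low counts and has no test.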
